A study of Mus musculus with 8 samples.

Results

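Coch, Otor, Otos, Pou3f4 and Tbx18, 5 genes known from the fibrocytes of the spiral ligament and from the otic mesenchyme they arise from, were followed across the organ of Corti in mice 16 days old (postnatal day 16). They were chosen by symbol, and the array carried 7 probe sets for them, 1 each for Coch, Otor and Otos and 2 each for Pou3f4 and Tbx18, among 45037 probe sets for 18193 genes. All 5 passed the filter on low signal that left 13221 genes to be tested. Each sample was the apical or the basal part of the organ of Corti, pooled from both cochleae of a mouse. Conditional knockout mice (cKO, Atoh1-Cre;Dicer1(flox/flox)) carried 2 floxed alleles of Dicer1, the enzyme that makes mature microRNAs. Their littermate controls (Atoh1-Cre;Dicer1(flox/wt)) carried 1, so that Cre and at least 1 floxed allele were present in every animal. The strains were Dicer1tm1Bdh and Tg(Atoh1-cre)1Bfri, whose Cre follows Atoh1, a gene of the hair cell lineage and not a fibrocyte marker. The 4 groups (control apex, control base, cKO apex, cKO base) held 2 samples each. The apical and basal sample of 1 genotype and replicate number were taken as 1 mouse, which gave 4 presumed mice.

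The spiral ligament is the connective tissue of the lateral wall of the cochlea, which lies beside the sensory strip and anchors the stria vascularis. Its fibrocytes are coupled by gap junctions and pass potassium from the organ of Corti back towards the stria, which secretes it into the endolymph. Coch encodes cochlin, an abundant protein of the extracellular matrix in the spiral ligament and spiral limbus that is mutated in a dominant human deafness with vestibular symptoms. Otor encodes otoraplin, a small secreted protein of the inner ear, and Otos encodes otospiralin, a small secreted protein of the fibrocytes whose loss impairs hearing in mice. Pou3f4 is a POU-domain transcription factor of the otic mesenchyme that lies on the X chromosome and is mutated in X-linked deafness. Tbx18 is a T-box transcription factor that the otic mesenchyme of mice needs to form fibrocytes.

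The genes lie on separate chromosomes of GRCm38.p6, Coch at chr12:51593283-51606619, Otor at chr2:143078393-143081713, Otos at chr1:92644218-92648899, Pou3f4 at chrX:110814379-110819108 and Tbx18 at chr9:87702800-87731260. The 250 bases before the start of Pou3f4 and of Tbx18, the transcription factors, are shown with those before Otor, as an example of a secreted product. They were taken from RefSeq and are written 5′ to 3′ along the transcribed strand, with matches to 4 motifs searched on both strands in capitals.
Pou3f4: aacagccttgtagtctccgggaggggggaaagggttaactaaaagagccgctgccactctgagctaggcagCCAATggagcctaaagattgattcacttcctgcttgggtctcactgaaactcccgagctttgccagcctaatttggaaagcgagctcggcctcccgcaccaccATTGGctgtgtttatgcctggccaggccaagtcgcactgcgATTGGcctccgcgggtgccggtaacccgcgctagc
Tbx18: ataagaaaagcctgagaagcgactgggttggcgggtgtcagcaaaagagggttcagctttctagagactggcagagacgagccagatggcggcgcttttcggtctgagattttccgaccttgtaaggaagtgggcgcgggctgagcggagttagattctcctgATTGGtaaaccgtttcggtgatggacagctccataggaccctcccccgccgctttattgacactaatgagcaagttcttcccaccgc
Otor: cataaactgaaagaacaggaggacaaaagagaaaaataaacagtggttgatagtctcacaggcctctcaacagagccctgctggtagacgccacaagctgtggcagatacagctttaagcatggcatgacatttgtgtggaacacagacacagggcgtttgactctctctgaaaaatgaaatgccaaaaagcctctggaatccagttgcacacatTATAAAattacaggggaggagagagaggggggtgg
The Pou3f4 window is chrX:110814129-110814378 (plus strand), that of Tbx18 chr9:87731261-87731510 (minus strand) and that of Otor chr2:143078143-143078392 (plus strand). The capitals mark the CCAAT box (CCAAT, or ATTGG on the other strand) and the TATA box (TATAAA). Pou3f4 had 3 CCAAT boxes, at 179, 76 and 35 bases before the start, and Tbx18 had 1 at 87 bases. Otor had a TATA box at 35 bases before its start, and was the only secreted product with a match to any of the 4 motifs. A CCAAT box was found in 33.8% of 32851 windows of this length, at least 3 of them in 2.79%, and a TATA box in 12.4%. The POU octamer (ATGCAAAT, in 1.6% of windows) and a T-box half-site (GGTGTGA, in 3.33%) matched in none of the 3 windows, nor in those of Coch and Otos.

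Signals are the deposited MAS5 values of 1 array per sample, scaled so that the trimmed mean of every array was 500, and are given as log2. Median signals ran from 67.0 to 100.1, and replicates correlated less closely across genes (log2) in control base, at 0.9279, than in the other groups, at 0.9615 to 0.9779. Control base replicate 1 stood apart: its 12 measured stria vascularis genes summed to a signal of 6205, against 33165 to 38927 in the other basal samples and 8239 to 12213 in the apical ones. Dct, a melanin enzyme of strial pigment cells, was at 5.96 there and at 13.65 to 13.91 in the other basal samples. Its mouse, control mouse 1, was also the only one with a high Xist signal, 12.54 in the apex and 12.39 in the base against at most 8.23 elsewhere. Xist, which lies on the X chromosome as Pou3f4 does, was thus high in no cKO mouse. The part of this imbalance in the genotype comparisons was not tested. The apical sample of control mouse 1 had the highest strial sum of the apical samples, 12213, and the highest apical Dct, 11.87. The low strial signal was thus in its basal sample alone. Of the labelled tissue's own markers, Myo7a, a hair cell myosin, lay between 7.68 and 9.17, and Sox2, a supporting cell factor, between 9.30 and 10.99. Dicer1 was at 9.17 to 9.57 in the apex and 9.04 to 9.36 in the base, with the genotypes overlapping in both, and where its probes lie relative to the floxed part is not known. Each group had 2 arrays, which limits the precision of every value. In these bulk samples more cells of a type and more RNA per cell cannot be told apart.

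The probe sets of the 3 secreted products were among the brightest on every array. The Coch signal ranked between 2nd and 15th of 45037 probe sets, Otor between 8th and 35th, and Otos between 31st and 72nd. On the log2 scale Coch was at 14.61 and 14.26 in control apex, 14.81 and 14.61 in cKO apex, 14.40 and 14.41 in control base, and 14.83 and 14.50 in cKO base. Its highest sample was 1.49-fold above its lowest. The highest value was in the base of cKO mouse 1 and the lowest in the apex of control mouse 2, and the ranges of apex and base overlapped.

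Otor was at 14.34 and 14.07 in control apex, 14.49 and 14.52 in cKO apex, 14.29 and 14.42 in control base, and 14.72 and 14.48 in cKO base. Within each region the cKO samples of Otor were above the controls. Groups of the 2 genotypes did not overlap for 31.2% of all tested genes in the apex and 28.7% in the base. The samples came from 2 presumed mice per genotype. Otos was at 14.18 and 13.94 in control apex, 14.25 and 14.15 in cKO apex, 14.25 and 14.24 in control base, and 14.45 and 14.20 in cKO base. For Otos the genotypes overlapped in both regions. Control apex replicate 2 was the lowest array for all 3 secreted products, and cKO base replicate 1 the highest.

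**Figure D1:**
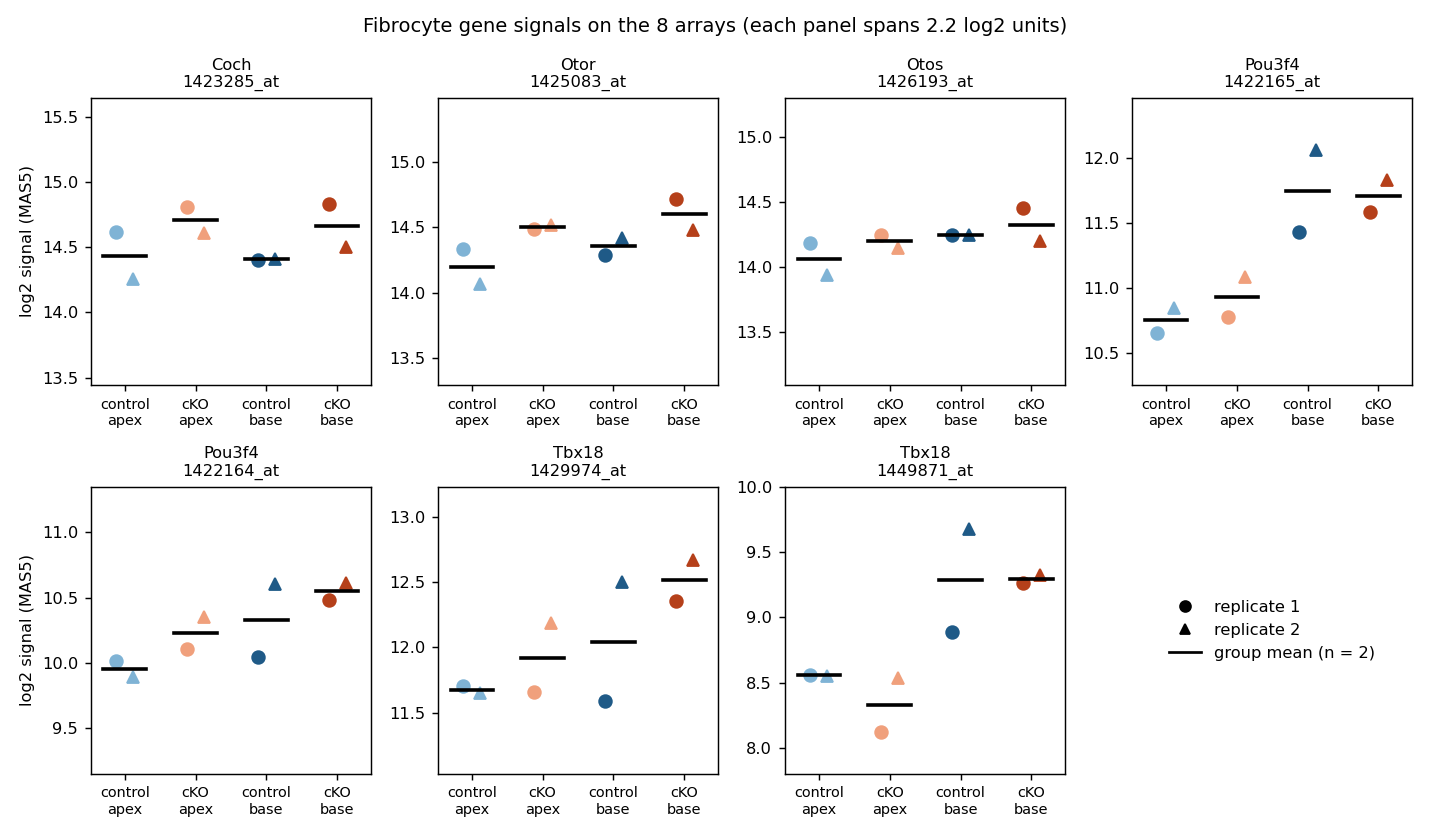
Log2 MAS5 signal (vertical axis) of the 7 probe sets of Coch, Otor, Otos, Pou3f4 and Tbx18 in the 4 groups, with replicate 1 as circles, replicate 2 as triangles and group means (n = 2) as lines. Coch, Otor and Otos stayed between 13.94 and 14.83 on all arrays, whereas the basal samples of Pou3f4 probe set 1422165_at were all above the apical ones. The regions did not overlap for 12.4% of all tested genes.

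The 2 transcription factors varied more between samples. Pou3f4, read from its brighter probe set 1422165_at, was at 10.66 and 10.85 in control apex, 10.78 and 11.09 in cKO apex, 11.43 and 12.06 in control base, and 11.59 and 11.83 in cKO base. Every basal sample was above every apical sample, where the regions did not overlap for 12.4% of all tested genes. The genotypes overlapped in both regions. Its other probe set, 1422164_at, was at 10.02 and 9.89, 10.11 and 10.35, 10.05 and 10.61, and 10.48 and 10.61 in the same order of groups. There the control base sample of mouse 1 lay among the apical samples.

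Tbx18, read from probe set 1429974_at, was at 11.71 and 11.65 in control apex, 11.66 and 12.19 in cKO apex, 11.59 and 12.50 in control base, and 12.36 and 12.67 in cKO base. Its 3 highest samples were basal, and its lowest, at 11.59, was control base replicate 1. The other Tbx18 probe set, 1449871_at, was dimmer, at 8.56 and 8.55, 8.13 and 8.54, 8.89 and 9.68, and 9.27 and 9.32 in that order. On this probe set all 4 basal samples were above all 4 apical ones. Among all tested genes, each read from its brightest probe set, the regions did not overlap for 12.4%. Across the 8 arrays the highest signal of Pou3f4 was 2.64-fold and that of Tbx18 2.11-fold above the lowest.

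These ranges can be set beside those of other genes. The range over the 8 arrays was 0.57 for Coch, 0.66 for Otor and 0.51 for Otos on the log2 scale, against a median of 0.82 for all tested genes and 0.48 for the 55 genes with a mean of at least 14. Among genes within 0.5 of its own mean log2 signal, Coch had a wider range than 76.6% of 47, Otor than 90.3% of 72 and Otos than 65.8% of 120. Pou3f4, with a range of 1.40, exceeded 91.1% of the 1641 genes of like brightness, and Tbx18, with 1.08, exceeded 85.5% of 1046. Whether the probes of the secreted products were close to saturation was not tested, since the sources used here give no scanner values.

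Base was compared with apex first in controls, read from the brighter probe sets. Pou3f4 was 1.99-fold higher in control base, at 11.74 ± 0.45 (log2, SD, n = 2) against 10.75 ± 0.14 in the apex, a difference of 0.99 ± 0.24 (SE). This did not pass limma's test over all genes (adjusted p = 0.448), as no gene did in this comparison (0 of 13221, 0% called, and 994 at an unadjusted p under 0.05). Tbx18 gave 0.37 ± 0.31, Otos 0.18 ± 0.13, Otor 0.15 ± 0.13 and Coch -0.03 ± 0.16. The dimmer probe set of Pou3f4 gave 0.37 ± 0.22 and that of Tbx18 0.73 ± 0.29, so that the order of the 2 factors depended on the probe set. The 95% interval of the Coch difference ran from -0.40 to 0.34. Groups did not overlap for 2 of the 5, Pou3f4 and Otos, where 33.9% of all tested genes had groups that did not overlap. Without control base replicate 1, which leaves a single basal control, Pou3f4 gave 1.30 and Tbx18 gave 0.82. Without control base replicate 2, Tbx18 gave -0.09.

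In the cKO, read from the brighter probe sets, Pou3f4 again had the largest difference of the 5. Pou3f4 was 1.71-fold higher in cKO base, at 11.71 ± 0.17 against 10.93 ± 0.22 in the apex, a difference of 0.77 ± 0.24 (adjusted p = 0.273, limma). Tbx18 was at 12.52 ± 0.22 in the base and 11.92 ± 0.38 in the apex, a difference of 0.59 ± 0.31 (adjusted p = 0.53, limma). Otos gave 0.13 ± 0.13, Otor 0.10 ± 0.13 and Coch -0.04 ± 0.16. The dimmer Tbx18 probe set gave 0.96 ± 0.29 and the dimmer Pou3f4 probe set 0.32 ± 0.22, so that the order of the 2 factors depended on the probe set. None of the 5 passed, where 0.0832% of all tested genes did. Pou3f4 and Tbx18 had groups that did not overlap, as did 48.8% of all tested genes.

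Over both genotypes Pou3f4 was 1.84-fold higher in the base (0.88 ± 0.17, log2, SE, 95% interval 0.49 to 1.27). It was higher in 4 of 4 presumed mice, as were 16% of all tested genes. Its adjusted p was 0.0593 in limma, just above the threshold of 0.05, where 157 of 13221 genes passed. It was 0.0314 in limma with the replicate block, which compares base and apex within each presumed mouse, and 255 genes passed there. With the presumed mouse as a random block it was 0.0233 in limma, and 527 genes passed. The difference was 1.04 without control base replicate 1 and 0.72 without control base replicate 2. Over all 19 alternatives the difference of Pou3f4 ran from 0.61 to 1.04. The lowest difference came from the mean of its 2 probe sets, since 1422164_at alone gave 0.35 ± 0.16.

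Tbx18 gave 0.48 ± 0.22 over both genotypes (95% interval -0.03 to 0.99, adjusted p = 0.314, limma) and was higher in the base of 3 of 4 presumed mice. Without control base replicate 1 it gave 0.71, and without control base replicate 2 it gave 0.25. Its dimmer probe set gave 0.85 ± 0.20 (adjusted p = 0.132 with every probe set tested, limma). It was higher in the base of 4 of 4, as were 16% of all tested genes. Of the secreted products, Otos gave 0.16 ± 0.09, Otor 0.13 ± 0.09 and Coch -0.04 ± 0.11, with intervals of -0.05 to 0.37, -0.09 to 0.34 and -0.30 to 0.23. In this comparison 1.19% of all tested genes passed and 0 of the 5 did, with a median difference of 0.16 for the 5 and -0.02 for all tested genes. Samples of base and apex did not overlap for Pou3f4, as for 12.4% of all tested genes.

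Taken mouse by mouse, base minus apex of Pou3f4 was 0.77 and 1.21 in the controls and 0.81 and 0.74 in the cKO. For Tbx18 it was -0.11 and 0.85 in the controls and 0.70 and 0.48 in the cKO. On these probe sets both factors differed most between regions in control mouse 2, while the dimmer Tbx18 probe set gave 1.14 in cKO mouse 1 and 1.13 in control mouse 2. For Coch it was -0.21 and 0.15 in the controls and 0.03 and -0.11 in the cKO, above 0 in 2 of 4 mice. For Otor it was -0.05, 0.35, 0.23 and -0.04 in that order, and for Otos 0.06, 0.30, 0.20 and 0.05. Otos and Pou3f4 were above 0 in all 4 mice, as were 16% of all tested genes.

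**Figure D2:**
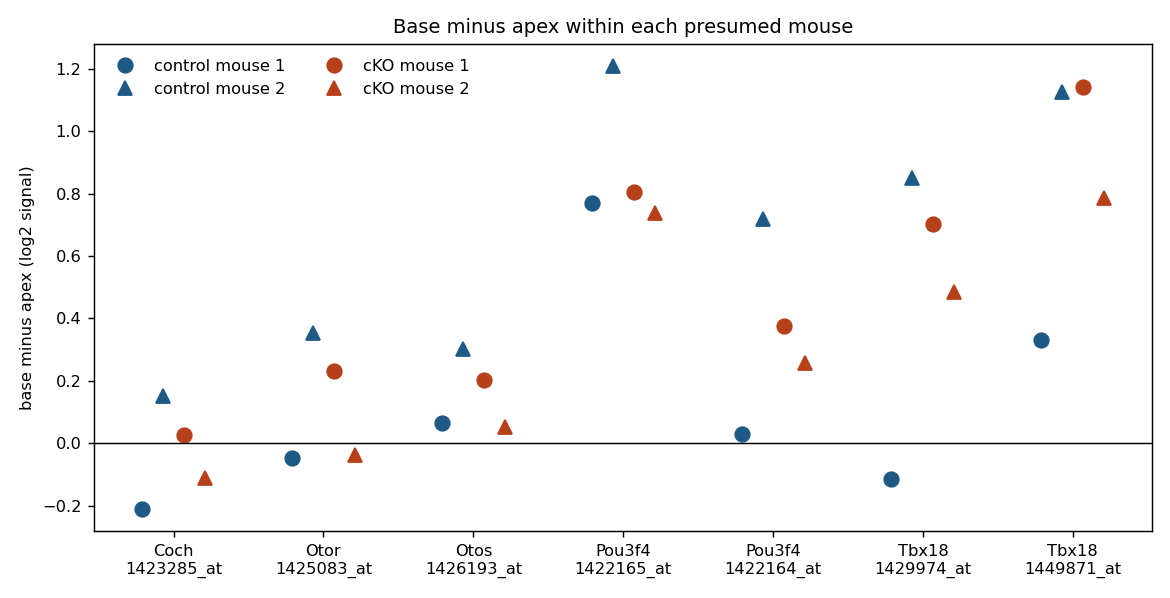
Base minus apex in log2 signal (vertical axis) for the 7 probe sets, with a point for each of the 4 presumed mice (controls blue, cKO red, mouse 1 circles, mouse 2 triangles). Pou3f4 probe set 1422165_at lay between 0.74 and 1.21 in the 4 mice, and Coch between -0.21 and 0.15.

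On its brighter probe set, the regional difference of Pou3f4 exceeded that of each secreted product within every mouse. It exceeded the difference of Coch by 0.78 to 1.06 on the log2 scale, that of Otor by 0.58 to 0.85 and that of Otos by 0.60 to 0.91. With the dimmer Pou3f4 probe set the excess was 0.24 to 0.56 over Coch, 0.07 to 0.36 over Otor and -0.04 to 0.42 over Otos. The brighter Tbx18 probe set exceeded Coch by 0.10 to 0.70, and its comparison with Otor and Otos was above 0 in 3 of 4 mice. The dimmer one exceeded Coch by 0.54 to 1.11, Otor by 0.37 to 0.91 and Otos by 0.26 to 0.94, in 4 of 4 mice each. These comparisons were chosen after the signals had been seen and are given as a description. They set the factors against probe sets near the top of the arrays, where a compressed response was not tested.

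Genotype was compared within each region. In the apex all 5 genes had a higher mean in the cKO, as did 50.1% of all tested genes, by 0.30 ± 0.13 for Otor, 0.27 ± 0.16 for Coch, 0.24 ± 0.31 for Tbx18, 0.18 ± 0.24 for Pou3f4 and 0.13 ± 0.13 for Otos (log2, SE). The Otor means were 14.50 ± 0.02 (SD, n = 2) in cKO apex and 14.20 ± 0.19 in control apex, a 1.23-fold difference. No adjusted p was below 1 for any of them in limma, and 0% of all tested genes passed, with 290 at an unadjusted p under 0.05. Groups did not overlap for Otor, as for 31.2% of all tested genes. The median difference was 0.24 over the 5 and 0.00 over all tested genes.

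In the base 4 of the 5 had a higher mean in the cKO, as did 49.8% of all tested genes. Tbx18 gave 0.47 ± 0.31, Coch 0.26 ± 0.16, Otor 0.25 ± 0.13, Otos 0.08 ± 0.13 and Pou3f4 -0.04 ± 0.24 (cKO minus control, log2, SE). Coch was at 14.66 ± 0.24 in cKO base and 14.41 ± 0.004 in control base, which is 1.20-fold. The adjusted p was 1 for each in limma, no gene passed (0% called, 413 at an unadjusted p under 0.05), and Coch and Otor had groups that did not overlap, as did 28.7% of all tested genes. The Tbx18 difference was 0.92 without control base replicate 2 and 0.02 without control base replicate 1, the sample low in strial transcripts. The dimmer Tbx18 probe set gave 0.01 ± 0.29 in the base and -0.22 ± 0.29 in the apex, while the brighter one was positive in both. Other cell types' transcripts were also compared in the base. The 7 blood genes summed to 8199 to 8325 in cKO base and 2847 to 5673 in control base, and all 6 that were tested had a higher mean in the cKO (median 1.19). The 9 hair cell genes summed to 4336 to 4897 in cKO base and 4652 to 5583 in control base, ranges that overlapped. Of the 9, 2 had a higher mean in the cKO (median -0.76). The stria vascularis genes summed to 33165 to 37578 in cKO base and 6205 to 38927 in control base, which also overlapped. Of the 10 tested, 9 had a higher mean in the cKO (median 1.62). No gene of these lists passed limma's adjusted threshold, and the part of these cell types in the differences of the 5 genes was not tested.

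**Figure D3:**
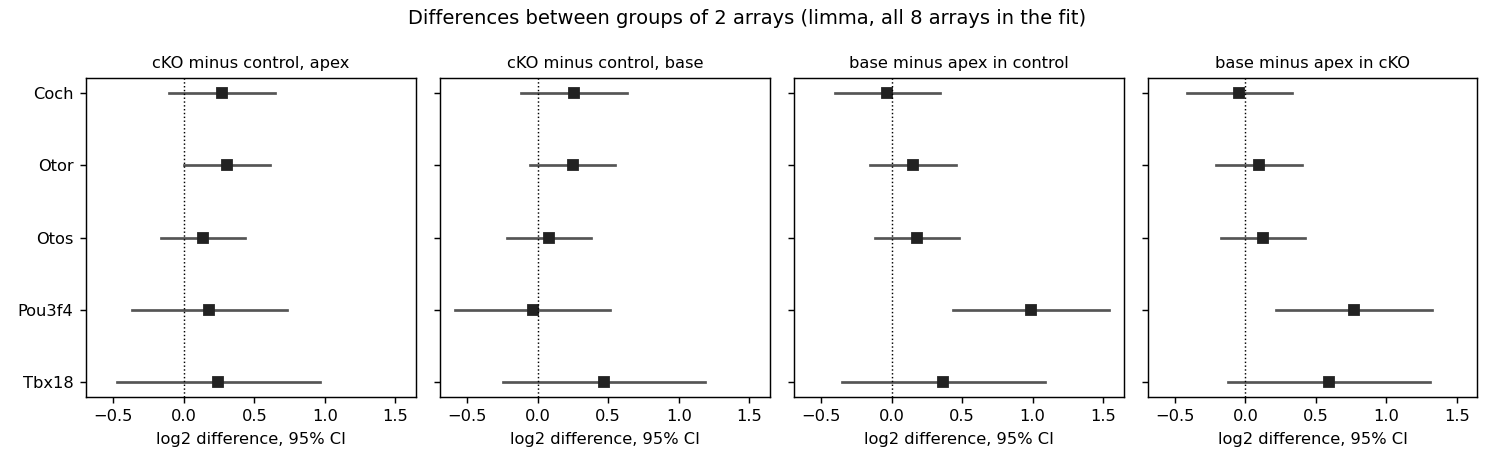
Log2 differences with 95% intervals (horizontal axis) for Coch, Otor, Otos, Pou3f4 and Tbx18 in 4 comparisons of groups of 2 arrays, from the limma fit of all 8. Pou3f4 and Tbx18 were read from their brighter probe sets. The intervals of Pou3f4 for base minus apex lay above 0 (0.44 to 1.54 in controls and 0.22 to 1.32 in the cKO), before adjustment for the number of genes, and all genotype intervals included 0.

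With 1 mean of apex and base per presumed mouse, cKO minus control was 0.36 ± 0.22 for Tbx18, 0.28 ± 0.09 for Otor (95% interval 0.053 to 0.50, unadjusted p = 0.0244 in limma), 0.26 ± 0.13 for Coch, 0.11 ± 0.10 for Otos and 0.07 ± 0.19 for Pou3f4. All 5 were above 0, as were 49.7% of all tested genes. The adjusted p was 0.999 for each in limma, and 0% of all tested genes passed, with 319 at an unadjusted p under 0.05. The median was 0.26 over the 5 and 0.00 over all tested genes. The 99.9th percentile of log2 signal was 14.37 and 14.26 in cKO apex, against 14.22 and 14.04 in control apex. In the base it was 14.38 and 14.21 in the cKO, against 14.18 and 14.20 in controls. Within each region it was thus higher on the cKO arrays, and its part in the genotype differences was not tested. With quantile normalization, which gives every array the same distribution, Coch gave 0.10 ± 0.08, Otor 0.10 ± 0.07 and Otos -0.04 ± 0.07. Tbx18 gave 0.33 ± 0.21 and Pou3f4 0.07 ± 0.18 under that scaling, each within 0.03 of its value on the deposited scale. Measured against the 99.9th percentile of its own array, Otor was 0.12 to 0.34 above it in the cKO and 0.03 to 0.22 above it in controls, so that the genotypes overlapped.

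**Figure D4:**
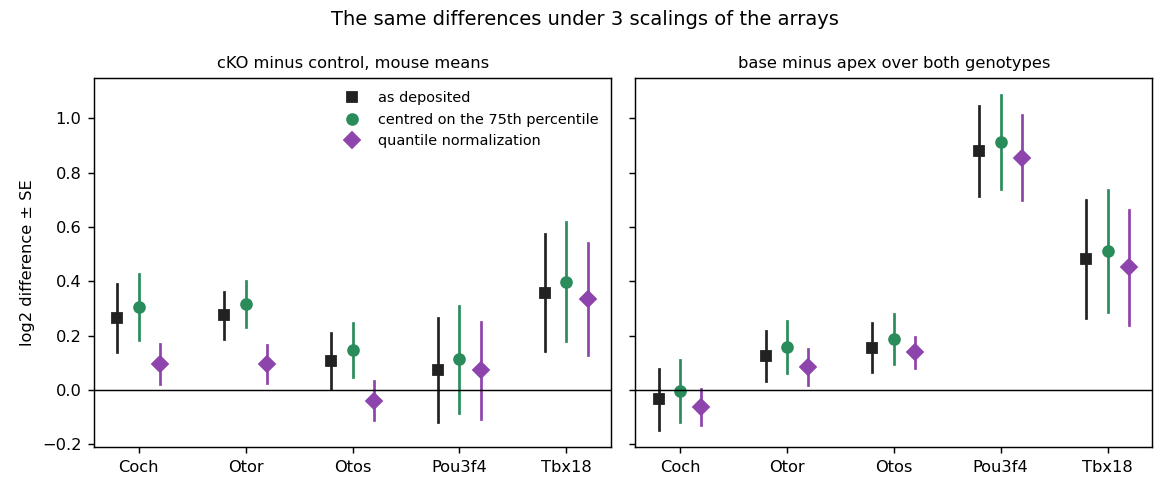
Log2 differences ± SE (vertical axis) of the 5 genes for cKO minus control on mouse means (left) and base minus apex over both genotypes (right), with the deposited scaling, each array centred on its 75th percentile, and quantile normalization. On the left Coch fell from 0.26 to 0.10 and Otor from 0.28 to 0.10 with quantile normalization, and on the right Pou3f4 stayed between 0.86 and 0.91.

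The genotype effect in the base was then tested against that in the apex. The difference was 0.23 ± 0.43 for Tbx18, -0.01 ± 0.23 for Coch, -0.06 ± 0.18 for Otor, -0.06 ± 0.18 for Otos and -0.22 ± 0.33 for Pou3f4 (log2, SE). The adjusted p was 1 for each in limma, and no gene passed (0% called, 149 at an unadjusted p under 0.05). For Pou3f4 the 95% interval ran from -0.996 to 0.56, so that neither a stronger nor a weaker regional difference in the cKO could be told at this precision.

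Genes of fibrocyte transport, otic mesenchyme and connective tissue matrix were read from lists, whose members are not all particular to fibrocytes. Of 13 measured genes for fibrocyte transport and gap junctions, 8 had a higher mean in the base over both genotypes (median 0.24, against -0.02 for all tested genes, of which 47.4% had a higher mean), and 0 passed in either direction. Slc4a11, a bicarbonate transporter family member, gave 3.15 ± 0.86 and was at 13.20 to 13.44 in 3 basal samples but 8.83 in control base replicate 1 and 8.68 to 9.55 in the apex. Slc26a4, the anion exchanger pendrin, gave 1.19 ± 0.35, and Slc12a2, a sodium, potassium and chloride cotransporter of fibrocytes and stria, 0.35 ± 0.11. In control base replicate 1 these were also within their apical ranges. Slc26a4 was at 12.10 there and 11.52 to 12.25 in the apex, and Slc12a2 at 13.88 and 13.63 to 13.97. Cd44, a hyaluronan receptor, gave -0.99 ± 0.30 in controls and -1.01 ± 0.30 in the cKO (adjusted p = 0.0722 over both, limma). The gap junction gene Gjb2 was at 13.53 to 14.21 on the 8 arrays.

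Of 13 tested transcription factors of the otic mesenchyme, 8 had a higher mean in the base (median 0.25) and 0 passed. Foxc1, a forkhead factor of mesenchyme, gave 0.74 ± 0.20, and the helix-loop-helix factors Twist1 and Twist2 gave 0.62 ± 0.19 and 0.56 ± 0.21. Snai2, a zinc finger repressor, gave -1.11 ± 0.30. Of 17 tested genes of connective tissue matrix, 12 had a higher mean in the base (median 0.35), where 47.4% of all tested genes did, and 2 passed as higher and 0 as lower, where 1.19% of all tested genes passed in either direction. The 2 were Bgn, the proteoglycan biglycan, which was higher by 1.18 ± 0.16, and Col3a1, a fibrillar collagen, which was higher by 0.75 ± 0.10 (adjusted p = 0.0292 for both, limma). Neither passed when any 1 of the apical samples or of the cKO base samples was left out (limma adjusted p 0.0845 to 0.119 for Bgn and 0.0882 to 0.148 for Col3a1), although Bgn stayed between 1.06 and 1.31 and Col3a1 between 0.67 and 0.82. Both passed without either control base sample. Without the intensity trend their adjusted p in limma was 0.0536 and 0.0691. Between genotypes over both regions, 0 genes of these 3 lists passed, and the medians were 0.13 for transport, -0.03 for the factors and 0.15 for the matrix.

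Other tissues' transcripts moved between regions alongside these genes. Summed over 12 genes, stria vascularis signal was 33165 and 37578 in cKO base, 6205 and 38927 in control base, and 8239 to 12213 in the apex. The bone and cartilage list, 11 genes, summed to 32045 to 42572 in the base and 19017 to 24394 in the apex. The 9 hair cell genes summed to 4336 to 5583 in the base and 6888 to 8852 in the apex, and the 9 supporting cell genes to 19957 to 24769 and 26284 to 31867. In control base replicate 1, the sample with the least strial signal, Pou3f4 was above all apical samples and Tbx18 below them on the brighter probe sets. The dimmer probe sets gave the other order there. Pou3f4 was at 10.05, among apical values of 9.89 to 10.35, and Tbx18 at 8.89, above apical values of 8.13 to 8.56. The part of tissue composition in the regional differences of Pou3f4 and Tbx18 was not tested.

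**Figure D5:**
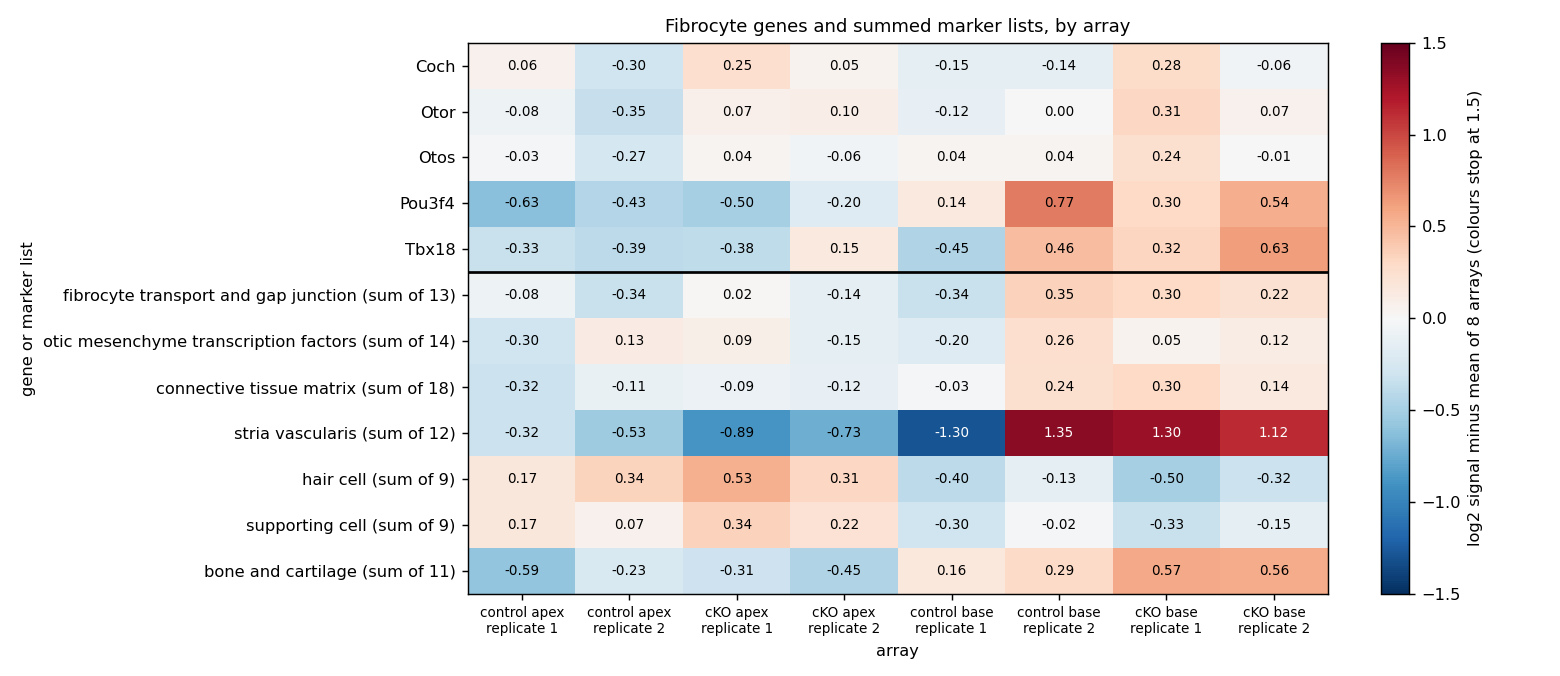
Log2 signal of the 5 genes and log2 of the summed signal of 7 marker lists, each minus its mean over the 8 arrays (colour and printed value), by array. On its brighter probe set Pou3f4 lay 0.14 above its mean in control base replicate 1, where the stria vascularis sum was 1.30 below its own. It lay 0.77 above its mean in control base replicate 2, where the stria sum was 1.35 above.

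The genes most like each of the 5 over the 8 arrays were found by Pearson's r of log2 signal, as a description: the 8 arrays come from 4 mice and share their scaling. For Coch they were Jtb (r = 0.979), Pebp1 (0.969), an inhibitor of Raf kinase, and Rab5a (0.969), a GTPase of early endosomes. For Otor they were Itm2b (0.959), Uqcrb (0.957), a subunit of the mitochondrial respiratory chain, and Ube2v1 (0.954). For Otos they were Kctd6 (0.966), Mroh1 (0.957) and St3gal3 (0.957), a sialyltransferase. For Pou3f4 they were Ucma (0.981), a secreted protein of cartilage, Mpnd (0.979) and Cpxm1 (0.978), a secreted member of the carboxypeptidase family. For Tbx18 they were Mapk14 (0.966), a stress-activated kinase, Prkaa2 (0.964), a catalytic subunit of the energy sensor AMPK, and Sntb2 (0.963).

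Among themselves the 5 were compared by the same measure. Coch, Otor and Otos were alike at r = 0.71 to 0.85, and the brighter Pou3f4 and Tbx18 probe sets at 0.80. Between secreted products and factors r ran from -0.17 for Coch and Pou3f4 to 0.59 for Otor and Tbx18 on the brighter probe sets. With the dimmer Pou3f4 probe set Otor reached 0.70, close to the 0.71 of Coch and Otos. The probe sets of 1 gene were alike at 0.84 for Pou3f4 and 0.78 for Tbx18, no closer than the dimmer Pou3f4 and the brighter Tbx18 probe sets were to each other (0.97).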

How the data were processed

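Total RNA from 8 samples was amplified in 2 cycles and labelled with biotin, per the labels' protocols. The deposited values are a linear intensity per probe set. MAS5 and affy 1.26 are named in the submitters' processing notes without their role. The sources used here name no array version and hold no detection calls. The depth of an array has no count, so precision rests on the number of arrays.

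Groups came from the sample titles. The trimmed mean (2% off each end) was 500 on every array. Of 45101 probe sets, 64 were controls; 34945 had 1 gene by the supplied annotation (34741 matched by Entrez identifier), 932 several and 9160 none listed. A gene was read from its probe set of highest mean log2 value, with no pseudocount. Probe sets under the 40th percentile (log2 5.27, a signal of 38.7) were not tested.

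Tests used limma 3.58.1 (R 4.3.3) with 4 group means over all 8 samples, an intensity trend and no block (4 residual degrees of freedom, 3.46 from the prior), two-sided, with Benjamini-Hochberg adjustment over 13221 genes and a threshold of 0.05. Genotype over both regions used mouse means (2 residual degrees of freedom, 3.1 from the prior). The fits were run on simulated data with independent noise on each array. These data held no mouse effect, so they did not test the pairing of samples. The design text ties a replicate to a single mouse, and deviations of same-numbered apex and base samples correlated at 0.339 in controls and 0.0683 in cKO. Across genotypes the number is only shared.

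The named genes are the 5 members with every probe set, up to 4 genes of smallest p from each list described, the 3 genes most like each member, and Dicer1, Xist and Dct; Myo7a, Sox2 and Gjb2 were added as tissue markers. Members and lists were chosen with earlier results of these data known. Sequences and positions are from RefSeq on GRCm38.p6.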

Additional observations from a re-analysis of the deposited data

How the results depend on the processing

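Of 370 values of the 5 genes under settings other than leaving out a sample, 360 kept their direction and their side of the threshold, 8 changed sign and 2 passed the threshold. The 2 were Pou3f4 for base minus apex over both genotypes under the fixed and the random replicate block (0.88 in both). No other call changed under the replicate block, but the count of all genes past the threshold moved from 157 to 255 (fixed) and 527 (random), and in the cKO alone from 11 to 0 and 81. Quantile normalization turned Otos for cKO minus control to -0.0388 in the apex, -0.0413 in the base and -0.04 over both, and the difference of genotype effects to 0.12 for Coch and 0.0039 for Otor. Centring on the 75th percentile gave 0.0018 for Pou3f4 between genotypes in the base and 0.0047 for Coch in control base minus apex. The mean of probe sets gave 0.0918 for Pou3f4 between genotypes in the base. None of these passed limma's adjusted threshold.

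The count of all genes past the threshold was 1 between genotypes in the apex and in the base without the intensity trend, against 0. In cKO base minus apex it was 11, and 0 without the filter, with quantile normalization, with centring, without the trend or with every probe set as its own row, 6 with the mean of probe sets and 449 with only the groups compared. Over both genotypes it was 157, and 98 with the mean of probe sets and 70 without the trend. The cause of these shifts was not tested.

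Leaving out 1 sample at a time, the count ran from 0 to 37 for genotype in the base (37 without control base replicate 2) and 0 to 551 for control base minus apex (551 without control base replicate 1, members 0 to 1). It was 0 in cKO base minus apex without any of its 4 samples. Over both genotypes it ran from 0 to 1518 (members 0 to 2): 1518 and 365 without control base replicates 1 and 2, 25 and 9 without control apex replicates 1 and 2, 5 without cKO base replicate 2, and 0 without cKO base replicate 1 or either cKO apex sample. Leaving out a mouse gave 0 to 9 for genotype over both regions (9 without control mouse 2). Values that changed sign ran from -0.0214 to 0.51 for Tbx18 between genotypes in the apex, and in the base from -0.0443 to 0.20 for Otos and -0.35 to 0.28 for Pou3f4. For base minus apex they ran from -0.21 to 0.15 for Coch and -0.0855 to 0.82 for Tbx18 in controls, from -0.21 to 0.12 for Coch and -0.0216 to 0.22 for Otor in the cKO, and from -0.125 to 0.0541 for Coch over both. For the difference of genotype effects they ran from -0.19 to 0.17 for Coch, -0.19 to 0.0789 for Otor, -0.18 to 0.0687 for Otos, -0.53 to 0.0989 for Pou3f4 and -0.23 to 0.68 for Tbx18. For genotype over both regions Pou3f4 ran from -0.13 to 0.28, with -0.065 without cKO mouse 2. Each group had 2 arrays, and no detection calls were used.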
